A study of Drosophila melanogaster with 5 samples.

Results

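The respiratory chain and ATP synthase of the mitochondrial inner membrane were followed through nuclear genes for their subunits in eye-antennal imaginal discs and disc tumors of third-instar Drosophila larvae. The genes were chosen by name, as those measured by a probe set that names exactly 1 gene whose current symbol starts with ND-, Sdh, UQCR-, COX or ATPsyn. This gave 73 of the 11981 genes with such a probe set, measured by 81 probe sets. They were 51 subunits of the 5 complexes, 21 paralogs whose symbol adds an L to that of a subunit, and 1 assembly factor, Sdhaf3. The Release 6 gene table holds 91 genes with such symbols, and the other 18, among them SdhA, UQCR-C1, UQCR-C2 and the mitochondrially encoded COX1, COX2 and COX3, are not analysed here.

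Total RNA was measured on 5 arrays, 1 per group. The 2 groups labelled Sras mutant 1 and Sras mutant 2 were Ras-overexpressing tumors that the labels call Sras mutants, and another tumor group joined the same overexpression to a scrib mutation and served as the positive control of the design. Tumors that only overexpressed Ras, called Ras here, and discs labelled 79E, called WT control, completed the set. All 4 tumor groups therefore carried the overexpressed Ras, and the WT control is the group without it. Tumor clones were marked with GFP by MARCM, which makes marked clones in an otherwise unmarked animal, and the labels do not say whether unmarked tissue was removed before extraction. The alleles, the driver of Ras and the number of animals per array are not stated. Since each group is a single array without replicates, no test was possible, and every difference below is between single arrays. In RNA of whole tissue, fewer cells of a type and less RNA per cell cannot be told apart.

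Complex I (NADH dehydrogenase, the ND- genes), complex III (UQCR-) and complex IV (cytochrome c oxidase, COX) move electrons to oxygen and pump protons, complex II (succinate dehydrogenase, Sdh) feeds electrons from the tricarboxylic acid cycle without pumping, and complex V (ATPsyn) uses the proton gradient to make ATP. The subunits are assembled in near-fixed proportions, and their genes are expressed in nearly all cells, at especially high levels in muscle. In flies many subunits also have a duplicate gene, often named with an L, that is known for expression mainly in the testis.

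The arrays differed strongly in transcripts of other larval tissues. Summed over the list of 10 salivary gland genes on the linear scale, the level was 1950 in Sras mutant 1, 6862 in Sras mutant 2 and 1731 in the scrib mutant, against 157702 in Ras and 178521 in WT control. For 15 measured muscle genes the sum was 5603, 5107 and 4679 in the same 3 mutant arrays, against 30498 in Ras and 29628 in WT control. The muscle tropomyosin gene Tm2, among the lowest of them relative to Ras, read 6.93 in Sras mutant 1, 6.64 in Sras mutant 2 and 6.52 in the scrib mutant, against 11.38 in Ras and 11.19 in WT control. Not all followed: in the same 3 mutant arrays sls lay 0.73, 0.85 and 0.97 above Ras, and flr was level with it (0.010, 0.021 and 0.092). The filter value, the level under which a gene counts as dim, was 6.36, and 13, 11 and 11 of the 15 muscle genes reached it in the mutant arrays, against 14 in both Ras and WT control. Of 19 measured eye and antennal identity genes, 19, 19 and 18 reached it in Sras mutant 1, Sras mutant 2 and the scrib mutant, against 19 in both Ras and WT control. In the scrib mutant some passed it narrowly, among them gl (6.54), so (6.59) and eya (6.66). Others, such as toy (11.42) and Lim1 (10.43), lay far above it there. How much of the labelled tissue each array held was not tested. Their summed level was 19837 in Sras mutant 1, 18678 in Sras mutant 2 and 8770 in the scrib mutant, against 11038 in Ras and 10556 in WT control. The mean gap between control probe sets near the 3′ and the 5′ ends of 3 housekeeping transcripts, a sign of RNA or labelling quality, was 0.91, 0.88 and 0.88 log2 in the 3 mutant arrays, against 1.40 in Ras and 1.00 in WT control. For 6 measured fat body genes the sum was 5000, 11537 and 4669 in the 3 mutant arrays, against 39390 in Ras and 42287 in WT control. The gut sum was 672, 689 and 439, against 7445 in Ras and 2890 in WT control. The salivary gland, muscle, fat body, gut and 3′ to 5′ values, and the neuron and glia sums given below, all move with the mutant-to-Ras comparisons. Their part in the results below was not tested.

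The subunits of the 5 complexes differed little between the 5 arrays. Of the 51 subunits, 49 passed the filter, with a highest value at or above 6.36, and 47 of those had a mean level of 10 or more on the log2 scale. ND-B8 and UQCR-11 did not pass. The gap between a subunit's highest and lowest array had a median of 0.29 log2 over the 49, and ran from 0.087 in UQCR-Q to 1.06 in ND-B14.5A. The same gap had a median of 0.68 over all 7850 genes that passed the filter, and of 0.49 over the 2277 of them with a mean level of 10 or more. Summed on the linear scale, the 51 subunits came to 226037 in Sras mutant 1, 208903 in Sras mutant 2 and 210418 in the scrib mutant, against 216544 in Ras and 210529 in WT control.

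Against Ras, none of the 49 subunits that passed the filter differed 2-fold or more. In Sras mutant 1, 0 of 49 subunits were at least 2-fold higher and 0 at least 2-fold lower, against 4.04% and 9.77% of all kept genes. In Sras mutant 2 the counts were again 0 and 0, beside 4.96% and 9.95% of kept genes. For the scrib mutant they were 0 and 0, beside 9.26% and 14.2%. The arrays thus held many genes apart by this measure, and the 49 subunits were not among them. Within 0.5 log2 of Ras lay 47 of 49 subunits in Sras mutant 1, 46 in Sras mutant 2 and 46 in the scrib mutant. Of all kept genes, 67.2%, 66.4% and 52.9% did, and of those with a mean level of 10 or more, 81%, 79.1% and 69.9%. The scatter of the subunits around their median was 0.22, 0.25 and 0.22 log2 (SD over genes), against 0.98, 0.98 and 1.25 over all kept genes.

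The median subunit lay −0.022 log2 from Ras in Sras mutant 1, −0.16 in Sras mutant 2 and −0.10 in the scrib mutant. Over all kept genes the medians were 0.11, 0.084 and 0.12, in the same order. Of the 49 subunits, 28, 35 and 32 read lower than Ras, where 38.4%, 41.3% and 42.4% of kept genes did. The subunits therefore sat slightly below the bulk of genes in each mutant array. The gap between the medians was −0.17 to −0.14 log2 in Sras mutant 1, −0.24 to −0.21 in Sras mutant 2 and −0.21 to −0.16 in the scrib mutant over the 5 ways of scaling the arrays that were computed. Apart from quantile normalization, these scalings differ only by a constant per array. Among them the gap could move only through the genes that the filter kept, so the narrow range is no separate support for it. The gap was smaller without the filter on dim genes, at −0.071, −0.19 and −0.16 in the same order. The median itself depended on the scaling. Centred on 19 eye and antennal identity genes it became −0.92, −1.08 and 1.53 in Sras mutant 1, Sras mutant 2 and the scrib mutant, when the median of all kept genes moved to −0.77, −0.87 and 1.74. Directions given for genes and lists are those of quantile normalization, and many turn under that centring, where all 50 subunits kept by its filter were at least 2-fold higher than Ras in the scrib mutant. Those identity genes are not a neutral base, since 14 and 13 of the 19 were at least 0.5 log2 higher than Ras in the Sras tumors and 11 were at least 0.5 log2 lower in the scrib mutant.

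**Figure D1:**
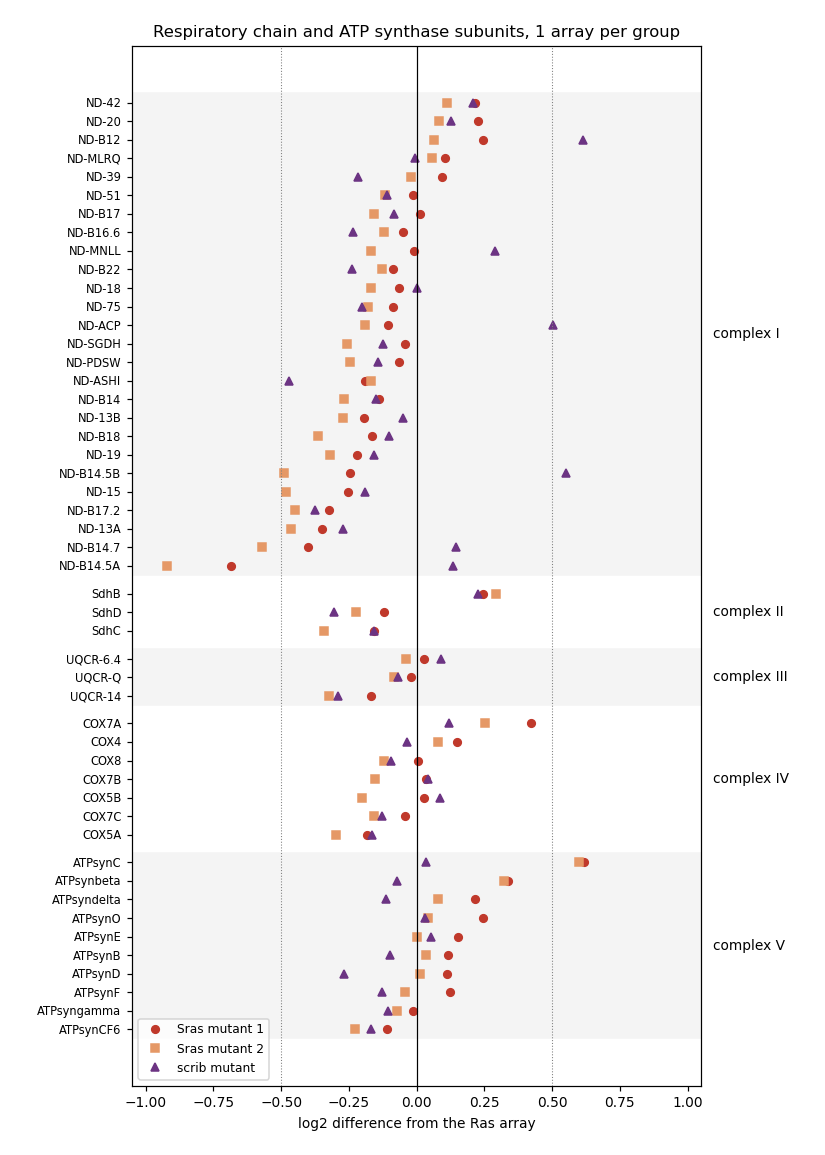
Log2 difference from the Ras array (x axis) of each of the 49 subunits that passed the filter (rows, grouped by complex), with circles for Sras mutant 1, squares for Sras mutant 2 and triangles for the scrib mutant, 1 array each. Nearly all points lie between the dotted lines at −0.5 and 0.5, ND-B14.5A lies furthest left in the Sras tumors at −0.68 and −0.92, and ATPsynC furthest right at 0.62 and 0.60.

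Ras alone and WT control were closer still. The median subunit differed by 0.029 log2 between Ras and WT control, with a range from −0.24 to 0.20. All 49 subunits lay within 0.5 log2, as did 90.8% of kept genes and 97.7% of those with a mean level of 10 or more. None of the 49 was 2-fold higher or lower, against 0.701% and 1.36% of kept genes. Of the subunits, 29 read above WT control, near the 54.6% of all kept genes. The lowest difference was that of SdhB (−0.24) and the highest that of ND-MNLL (0.20), a membrane-arm subunit of complex I. Between these 2 arrays the hemocyte sum was 6065 in Ras and 14492 in WT control, and the gut sum 7445 in Ras and 2890 in WT control. The part of these tissues was not tested.

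With WT control as the baseline, the mutants looked much the same. The median subunit lay 0.018 from WT control in Sras mutant 1, −0.093 in Sras mutant 2 and −0.038 in the scrib mutant. Within 0.5 log2 of WT control were 47, 46 and 45 of the 49 subunits, against 63.1%, 63.2% and 50.9% of kept genes. These comparisons use the same mutant arrays as those with Ras.

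Complex I, taken here as all genes with an ND- symbol, was the largest group, with 26 of 27 subunits past the filter, and held the largest departures from Ras. Relative to Ras its median was −0.087 in Sras mutant 1, −0.18 in Sras mutant 2 and −0.11 in the scrib mutant, where centring each array on its median turned it to 0.041 and centring on the identity genes to 1.56. The matrix arm, which takes up electrons from NADH and passes them to ubiquinone, had medians of −0.11 and −0.22 in the Sras tumors and −0.13 in the scrib mutant over 10 kept subunits. For the 14 of the membrane arm, which pumps protons, they were −0.077, −0.21 and −0.11. The arms were sorted by mammalian orthologs after the values were known, and their medians were close to each other in every mutant array. ND-ACP and ND-MLRQ were placed in neither arm. ND-MLRQ is counted here by its symbol, although its mammalian ortholog NDUFA4 is now assigned to complex IV.

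The subunit furthest below Ras in the Sras tumors was ND-B14.5A, the ortholog of mammalian NDUFA7, an accessory subunit of the matrix arm. It read 10.29 in Sras mutant 1, 10.05 in Sras mutant 2 and 11.11 in the scrib mutant, against 10.97 in Ras and 10.96 in WT control. Both Sras tumors were below the other 3 arrays, with differences from Ras of −0.68 and −0.92 log2, while the scrib mutant was the highest (0.13). Set against the median subunit of complex I, its difference from Ras was −0.60 and −0.74 log2 in the Sras tumors and 0.24 in the scrib mutant. ND-B14.7, ortholog of the membrane-arm subunit NDUFA11, had a similar order, with 10.82 in Sras mutant 1, 10.65 in Sras mutant 2 and 11.37 in the scrib mutant, against 11.23 in Ras and 11.13 in WT control. Its differences from Ras were −0.40 and −0.57 in the Sras tumors and 0.15 in the scrib mutant. ND-13A, ortholog of NDUFS6 in the matrix arm, was lower than Ras in all 3 mutant arrays, with 10.66 in Sras mutant 1, 10.55 in Sras mutant 2 and 10.74 in the scrib mutant, against 11.01 in Ras and 11.06 in WT control.

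The 3 subunits highest relative to Ras in the scrib mutant were all complex I genes, ND-B14.5B, ND-ACP and ND-B12. Each was at least 0.5 log2 above Ras there, as were 26.3% of all kept genes. ND-B14.5B, ortholog of the membrane-arm subunit NDUFC2, read 11.58 in Sras mutant 1, 11.34 in Sras mutant 2 and 12.38 in the scrib mutant, against 11.83 in Ras and 11.72 in WT control. The scrib array was the highest and the Sras tumors the lowest, with differences of 0.55 from Ras in the scrib mutant and −0.25 and −0.49 in the Sras mutants. ND-ACP, the mitochondrial acyl carrier protein, which is both a complex I subunit and a carrier of fatty acid synthesis, read 11.57 in Sras mutant 1, 11.48 in Sras mutant 2 and 12.17 in the scrib mutant, against 11.67 in Ras and 11.55 in WT control. Its 3 probe sets differed from Ras by 0.58, 0.41 and 0.50 in the scrib mutant, all upward. In the Sras tumors they disagreed in direction, with 0.21 and 0.086 on 1 probe set and −0.10 and −0.19 on the brightest. ND-B12, ortholog of NDUFB3 of the membrane arm, read 7.72 in Sras mutant 1, 7.54 in Sras mutant 2 and 8.09 in the scrib mutant, against 7.47 in Ras and 7.37 in WT control, with the scrib mutant 0.62 above Ras. This value is sensitive to scaling, as it was 0.32 with the values as deposited and 0.055 after centring on mitochondrial ribosomal protein genes. At the other end, ND-ASHI and ND-B17.2, accessory subunits of the membrane and matrix arms, were the furthest below Ras in the scrib mutant (−0.47 and −0.38). ND-ASHI read 10.96 in Sras mutant 1, 10.98 in Sras mutant 2 and 10.68 in the scrib mutant, against 11.15 in Ras and 11.20 in WT control. ND-B17.2 read 11.13 in Sras mutant 1, 11.001 in Sras mutant 2 and 11.08 in the scrib mutant, against 11.45 in Ras and 11.26 in WT control, and was below Ras in both Sras tumors too. Within complex I, the genes highest relative to Ras in the Sras tumors were ND-42 (0.22 and 0.11), ND-20 (0.23 and 0.083) and ND-B12 (0.24 and 0.063). ND-20, which binds an iron-sulfur cluster near the ubiquinone site, read 11.91 in Sras mutant 1, 11.77 in Sras mutant 2 and 11.81 in the scrib mutant, against 11.68 in Ras and 11.60 in WT control. ND-42 of the membrane arm read 11.12 in Sras mutant 1, 11.01 in Sras mutant 2 and 11.11 in the scrib mutant, against 10.90 in Ras and 11.08 in WT control, and both genes kept all 5 arrays within 0.35 log2.

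**Figure D2:**
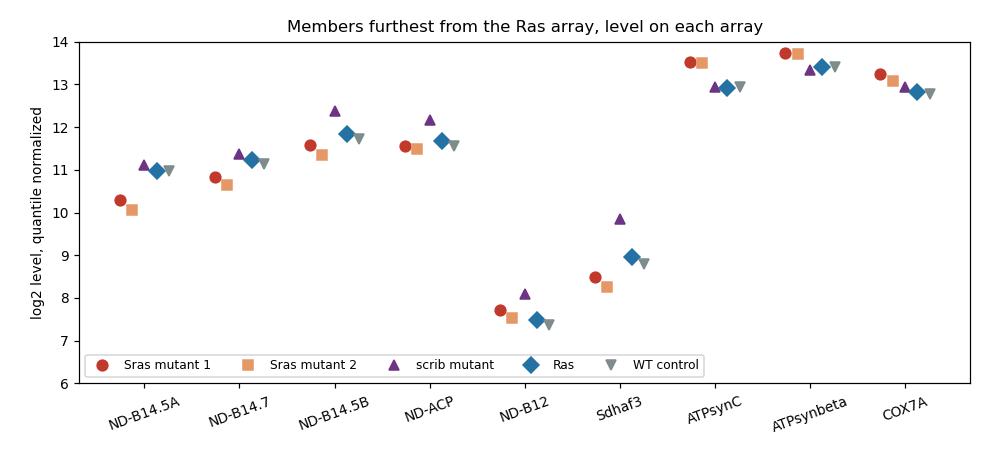
Log2 level (y axis, quantile normalized) of 9 members on each of the 5 arrays, 1 point per array and no replicates; the members were picked after their values were seen. ND-B14.5A and ND-B14.7 are lowest in the Sras tumors, and Sdhaf3, ND-B14.5B, ND-ACP and ND-B12 highest in the scrib mutant. ATPsynC, ATPsynbeta and COX7A are highest in the Sras tumors, ATPsynbeta only on the brighter of its 2 probe sets, the one shown. Levels of different genes come from different probe sets and are not comparable.

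Sras and scrib tumors, both with Ras, were also set against each other directly. The median subunit lay 0.079 from the scrib mutant in Sras mutant 1 and −0.052 in Sras mutant 2, and 44 and 43 of 49 lay within 0.5 log2, against 71.5% and 70.4% of kept genes. At least 2-fold lower than the scrib mutant were 0 subunits in Sras mutant 1 and 2 in Sras mutant 2, beside 4.85% and 4.28% of kept genes. Those 2 were ND-B14.5A (−0.82 and −1.06) and ND-B14.5B (−0.80 and −1.04, mutant 1 and then mutant 2). ND-B14.7 (−0.55 and −0.72) and ND-ACP (−0.61 and −0.70 on its brightest probe set) followed. The other 2 probe sets of ND-ACP gave smaller gaps. With 2 of 49 subunits, the share past 2-fold was near that of all genes.

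The Sras tumors differed from each other by a small offset in nearly every subunit. Sras mutant 1 read above Sras mutant 2 in 47 of 49 subunits, against 58.7% of kept genes. The median gap was 0.11 log2, with a range of −0.051 to 0.24, against 0.025 over all kept genes. Mitochondrial ribosomal protein genes had a similar gap, with a median of 0.11 and 65 of 69 genes above 0. Centred on those genes, the subunits' median gap was 0.031 and 36 of 49 lay above 0. Marker sums differed between these arrays as well. The fat body sum was 5000 in Sras mutant 1 and 11537 in Sras mutant 2, and the hemocyte sum 5794 in Sras mutant 1 and 3478 in Sras mutant 2. The gut sum was 672 in Sras mutant 1 and 689 in Sras mutant 2. Their part in the offset was not tested.

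Complex II oxidises succinate and is shared with the tricarboxylic acid cycle. SdhB, its iron-sulfur subunit, read 10.93 in Sras mutant 1, 10.98 in Sras mutant 2 and 10.92 in the scrib mutant, against 10.69 in Ras and 10.93 in WT control. It was lowest in Ras, and the 3 mutant arrays were level with WT control. The membrane anchor SdhC read 11.18 in Sras mutant 1, 10.9998 in Sras mutant 2 and 11.18 in the scrib mutant, against 11.34 in Ras and 11.41 in WT control. The other anchor, SdhD, read 10.86 in Sras mutant 1, 10.75 in Sras mutant 2 and 10.67 in the scrib mutant, against 10.98 in Ras and 11.08 in WT control. Both anchors lay below Ras and below WT control in all 3 mutant arrays. For SdhC the differences from Ras were −0.16 and −0.34 in the Sras tumors and −0.16 in the scrib mutant. Those of SdhD were −0.12 and −0.22 in Sras and −0.31 in scrib tumors. Sdhaf3, an assembly factor that protects the iron-sulfur subunit while the complex is built, spread more widely over the arrays than the 3 subunits and read 8.497 in Sras mutant 1, 8.26 in Sras mutant 2 and 9.85 in the scrib mutant, against 8.96 in Ras and 8.80 in WT control. It was highest in the scrib mutant, 0.89 above Ras, and lowest in the Sras tumors, at −0.46 and −0.69. Between the tumors, it lay −1.35 and −1.59 from the scrib mutant in Sras mutant 1 and Sras mutant 2, past 2-fold in both.

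Complex III had 3 of 4 subunits past the filter, all of them small accessory subunits. UQCR-Q was the steadiest gene of all 49, at 10.30 in Sras mutant 1, 10.24 in Sras mutant 2 and 10.25 in the scrib mutant, against 10.32 in Ras and 10.33 in WT control. UQCR-6.4 read 12.61 in Sras mutant 1, 12.55 in Sras mutant 2 and 12.68 in the scrib mutant, against 12.59 in Ras and 12.48 in WT control. UQCR-14 read 12.46 in Sras mutant 1, 12.30 in Sras mutant 2 and 12.34 in the scrib mutant, against 12.62 in Ras and 12.52 in WT control, slightly below Ras in every mutant array (−0.17 and −0.32 in the Sras tumors and −0.29 in the scrib mutant). The probe set of UQCR-11, the hinge-type subunit, stayed under the filter value on every array, with 5.37 in Sras mutant 1, 5.39 in Sras mutant 2 and 6.24 in the scrib mutant, against 5.09 in Ras and 5.16 in WT control, and its scrib value, 1.15 above Ras, lies in a range close to background. Of the other subunits of this complex, Cyt-c1, which carries the cytochrome c1 heme, read 11.79 in Sras mutant 1, 11.71 in Sras mutant 2 and 11.87 in the scrib mutant, against 11.62 in Ras and 11.65 in WT control, and the Rieske iron-sulfur gene RFeSP read 10.47 in Sras mutant 1, 10.49 in Sras mutant 2 and 10.30 in the scrib mutant, against 10.53 in Ras and 10.62 in WT control. The largest difference of either from Ras in a mutant array was that of Cyt-c1 in the scrib mutant (0.25). The gene ox, for a small subunit of this complex, lay below Ras in every mutant array. Its differences were −0.14 and −0.32 in the Sras tumors and −0.26 in the scrib mutant.

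All 7 measured subunits of complex IV passed the filter, and relative to Ras its medians were 0.028 in Sras mutant 1, −0.15 in Sras mutant 2 and −0.037 in the scrib mutant. COX7A, a small subunit of the enzyme's surface, was the highest relative to Ras in the Sras tumors and read 13.24 in Sras mutant 1, 13.07 in Sras mutant 2 and 12.93 in the scrib mutant, against 12.81 in Ras and 12.76 in WT control. COX4, the largest nuclear-encoded subunit in mammals, read 12.66 in Sras mutant 1, 12.59 in Sras mutant 2 and 12.47 in the scrib mutant, against 12.51 in Ras and 12.56 in WT control. COX8 read 12.95 in Sras mutant 1, 12.82 in Sras mutant 2 and 12.85 in the scrib mutant, against 12.94 in Ras and 12.88 in WT control. The 5 arrays of COX4 and COX8 thus lay close together, and COX7A was the only gene of the complex that exceeded Ras by more than 0.15 in a Sras array. COX5A was the lowest relative to Ras, with 12.56 in Sras mutant 1, 12.45 in Sras mutant 2 and 12.58 in the scrib mutant, against 12.74 in Ras and 12.65 in WT control. COX5B read 12.26 in Sras mutant 1, 12.03 in Sras mutant 2 and 12.31 in the scrib mutant, against 12.23 in Ras and 12.15 in WT control. COX7C read 12.83 in Sras mutant 1, 12.71 in Sras mutant 2 and 12.74 in the scrib mutant, against 12.87 in Ras and 12.81 in WT control on its brighter probe set, while its second probe set, which stayed below the filter value, differed from the first by up to 0.59 log2 in a comparison and is not read here. The genes levy and cype, which encode further subunits of this complex under older names, lay below Ras in every mutant array. For levy the differences were −0.065 and −0.23 in Sras tumors and −0.19 in the scrib mutant, and for cype −0.10 and −0.23 in Sras tumors and −0.31 in the scrib mutant.

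ATP synthase had the highest median of the 5 complexes relative to Ras in the Sras tumors, 0.14 and 0.025 over 10 subunits, against −0.10 in the scrib mutant. Over all kept genes the medians were 0.11, 0.084 and 0.12. The complex thus lay near the bulk of genes in Sras mutant 1 and below it in Sras mutant 2 and the scrib mutant. With the values as deposited its median in Sras mutant 2 was −0.035. ATPsynC, which forms the proton-driven ring in the membrane, read 13.53 in Sras mutant 1, 13.51 in Sras mutant 2 and 12.94 in the scrib mutant, against 12.91 in Ras and 12.93 in WT control. Both Sras tumors stood above the other 3, by 0.62 and 0.60 from Ras, while the scrib mutant was level with Ras (0.033). After centring on the identity genes these differences were −0.39 and −0.46, and with the values as deposited 0.49 and 0.48. ATPsynbeta, the catalytic subunit of the head, was also highest in the Sras tumors, with 13.73 in Sras mutant 1, 13.72 in Sras mutant 2 and 13.33 in the scrib mutant, against 13.40 in Ras and 13.41 in WT control, and lowest in the scrib mutant. On its second probe set the Sras tumors were not above Ras: there the Sras tumors lay −0.077 and −0.097 from Ras and the scrib mutant −0.35. The alpha subunit of the head, encoded by blw, read 13.49 in Sras mutant 1, 13.503 in Sras mutant 2 and 12.996 in the scrib mutant, against 13.05 in Ras and 13.06 in WT control, with the Sras tumors 0.43 and 0.45 above Ras and the scrib mutant level (−0.057). Relative to the complex's own median, ATPsynC differed from Ras by 0.48 and 0.58 in the Sras tumors.

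The stalks of the enzyme stayed closer to Ras. ATPsyndelta of the central stalk read 12.65 in Sras mutant 1, 12.51 in Sras mutant 2 and 12.32 in the scrib mutant, against 12.43 in Ras and 12.46 in WT control. ATPsyngamma, the rotating shaft, read 12.47 in Sras mutant 1, 12.41 in Sras mutant 2 and 12.38 in the scrib mutant, against 12.48 in Ras and 12.44 in WT control, a span of 0.11 log2. Its second probe set, close in brightness, read 12.54 in Sras mutant 1, 12.48 in Sras mutant 2 and 12.35 in the scrib mutant, against 12.27 in Ras and 12.33 in WT control. There the Sras tumors lay 0.26 and 0.21 above Ras, where the first probe set gave −0.015 and −0.074, so the probe sets differed in direction. The peripheral stalk, whose 4 genes ATPsynB, ATPsynD, ATPsynO and ATPsynCF6 hold the head in place, had medians of 0.11 and 0.025 in the Sras tumors and −0.13 in the scrib mutant. Of these, ATPsynCF6 was the lowest relative to Ras in the Sras tumors, with 12.61 in Sras mutant 1, 12.49 in Sras mutant 2 and 12.55 in the scrib mutant, against 12.72 in Ras and 12.57 in WT control. ATPsynF, a small membrane subunit, read 13.54 in Sras mutant 1, 13.38 in Sras mutant 2 and 13.30 in the scrib mutant, against 13.42 in Ras and 13.30 in WT control. ATPsynD was the lowest of the complex in the scrib mutant, −0.27 from Ras. None of the stalk genes passed 0.5 log2 in any of the 3 mutant arrays.

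The L paralogs, which in flies are known mainly from the testis, were nearly all dim. Of 21, 18 stayed below the filter value on every array, with values from 3.77 to 5.79, and no difference is drawn from them. None reached it on all 5 arrays. The other 3 passed it. COX7AL and ND-51L2 did so through the scrib mutant alone, so they had to be high there, and ATPsynepsilonL reached it on 4 arrays, Ras among them. COX7AL, a paralog of COX7A, read 4.81 in Sras mutant 1, 4.98 in Sras mutant 2 and 7.19 in the scrib mutant, against 4.18 in Ras and 4.05 in WT control. Only the scrib value lay above the filter, so its difference from Ras of 3.01 log2 starts near background and depends on it. ATPsynepsilonL, a paralog of the ATP synthase epsilon subunit, read 7.59 in Sras mutant 1, 7.501 in Sras mutant 2 and 7.71 in the scrib mutant, against 6.52 in Ras and 6.29 in WT control. All 3 mutant arrays were above Ras and WT control, by 1.08 and 0.98 from Ras in the Sras tumors and 1.20 in the scrib mutant, although centring on the identity genes turned the value of Sras mutant 2 to −0.017, while the epsilon gene sun differed by 0.23 and 0.11 in Sras tumors and 0.47 in the scrib mutant. ND-51L2, a paralog of the complex I flavoprotein gene ND-51, read 6.24 in Sras mutant 1, 6.22 in Sras mutant 2 and 6.74 in the scrib mutant, against 5.87 in Ras and 5.92 in WT control, above the filter in the scrib mutant alone. Of 19 measured testis genes, 18 stayed below the filter on every array, among them dj, Mst87F, aly, can and betaTub85D. The exception was mia, which read 8.88 in Sras mutant 1, 8.71 in Sras mutant 2 and 8.77 in the scrib mutant, against 7.73 in Ras and 7.68 in WT control.

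**Figure D3:**
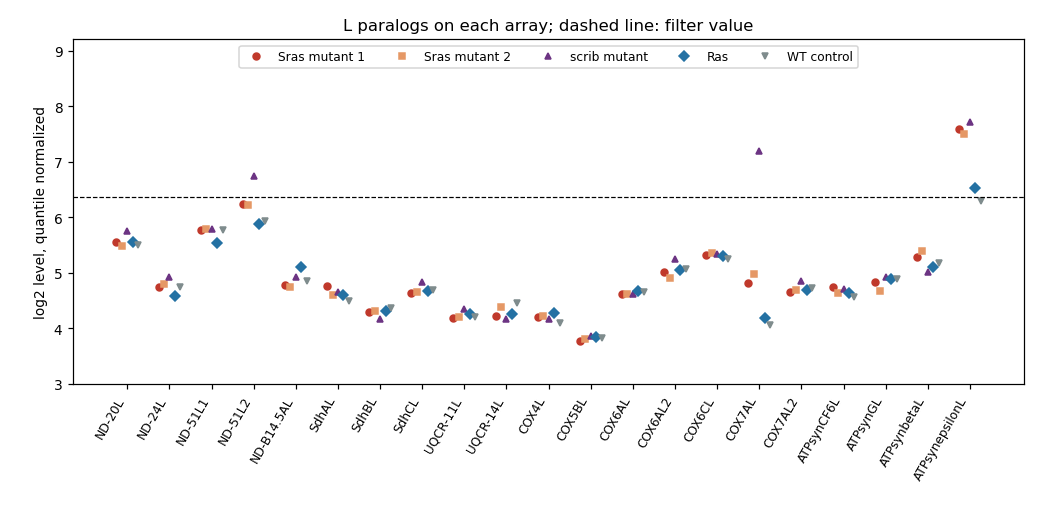
Log2 level (y axis, quantile normalized) of the 21 L paralogs (x axis, ordered by complex) on each of the 5 arrays, 1 point per array. The dashed line is the filter value of 6.36: COX7AL and ND-51L2 exceed it in the scrib mutant alone, ATPsynepsilonL in the 3 mutant arrays and Ras, and the other 18 on no array.

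Genes for building the complexes scattered more than the subunits in the scrib mutant, with an SD over genes of 0.53 against 0.22 log2. Of 14 kept assembly factors, 13 read above Ras in the scrib mutant and 2 were at least 2-fold higher, with a median of 0.42 log2, where 9.26% of kept genes were 2-fold higher and 42.4% read below Ras. In Sras mutant 1 and Sras mutant 2 the medians were 0.042 and 0.021. Sirup, the fly SDHAF4 and so an assembly factor of complex II, read 11.40 in Sras mutant 1, 11.34 in Sras mutant 2 and 13.33 in the scrib mutant, against 11.60 in Ras and 11.37 in WT control. It was far above the other 4 arrays in the scrib mutant alone, at 1.73 from Ras. Ttc19, an assembly factor of complex III, read 8.98 in Sras mutant 1, 8.92 in Sras mutant 2 and 9.88 in the scrib mutant, against 8.25 in Ras and 7.79 in WT control, and exceeded Ras by 1.63 in the scrib mutant and by 0.73 and 0.67 in the Sras tumors. Cox11, which delivers copper to complex IV, differed by 0.84 in the scrib mutant and by 0.30 and 0.22 in the Sras tumors, and Coa8, also of complex IV, by −0.13 in the scrib mutant and by −0.16 and −0.29 in Sras tumors. Sdhaf3, described above, belongs to this list too.

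Among other mitochondrial genes, the 69 for mitochondrial ribosomal proteins, which translate the chain's mitochondrially encoded subunits, had medians of 0.056 and −0.087 in the Sras tumors and 0.29 in the scrib mutant. In the scrib mutant 61 of them read above Ras and 15 by at least 0.5 log2, where 17 and 3 of the 49 subunits did. Of all kept genes, 57.5% read above Ras and 26.3% by at least 0.5 log2. The highest was mRpL28 (1.499), and mRpL33 was the lowest (−0.23). Of 18 genes in the tricarboxylic acid cycle list, 11 had a probe set and 10 were kept. The 10 count muc, a pyruvate dehydrogenase gene, and Idh, the NADP-dependent isocitrate dehydrogenase, which are not core enzymes of the cycle. They had medians of 0.13, 0.12 and 0.17 in Sras mutant 1, Sras mutant 2 and the scrib mutant. ScsbetaG, a succinyl-CoA synthetase subunit, was the highest in the Sras tumors at 0.73 and 0.76, and was lowest in Ras, with 10.38 in Sras mutant 1, 10.40 in Sras mutant 2 and 10.13 in the scrib mutant, against 9.64 in Ras and 10.20 in WT control.

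Among the listed carriers of the inner membrane, Ant2 stood furthest from Ras in the Sras tumors. Ant2, 1 of a pair of genes for the carrier that exchanges ATP for ADP, read 9.11 in Sras mutant 1, 9.37 in Sras mutant 2 and 7.33 in the scrib mutant, against 6.60 in Ras and 6.71 in WT control. The Sras tumors exceeded Ras by 2.51 and 2.77 log2 and the scrib mutant by 0.73, while Ras and WT control were near the filter value. Its partner sesB read 13.77 in Sras mutant 1, 13.76 in Sras mutant 2 and 13.45 in the scrib mutant, against 13.46 in Ras and 13.31 in WT control. The phosphate carrier Mpcp2 differed from Ras by 0.52 and 0.42 in the Sras tumors and 0.32 in the scrib mutant. Mpc1, of the pyruvate carrier, lay at −0.24 and −0.29 in Sras tumors and −0.091 in the scrib mutant.

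Regulators of mitochondrial gene expression had medians of 0.27 and 0.28 in the Sras tumors and 0.40 in the scrib mutant over 11 kept genes. The mitochondrial RNA polymerase gene PolrMT lay 0.43 and 0.28 from Ras in the Sras tumors and 0.68 in the scrib mutant, and the transcription factor TFAM at 0.13 and 0.083 in Sras tumors and 0.24 in the scrib mutant. Ets97D, also known as Delg, a nuclear regulator of mitochondrial genes, lay at 0.36 and 0.29 in Sras tumors and 0.55 in the scrib mutant. The gene ewg, the fly counterpart of mammalian NRF1 that is also active in neurons and muscle, was the lowest and read 9.13 in Sras mutant 1, 9.07 in Sras mutant 2 and 7.53 in the scrib mutant, against 9.80 in Ras and 9.59 in WT control. Its differences from Ras were −0.67 and −0.73 in Sras tumors and −2.27 in the scrib mutant. The summed neuron and glia markers came to 8112 in Sras mutant 1, 7515 in Sras mutant 2 and 5097 in the scrib mutant, against 16355 in Ras and 16712 in WT control. This list was split, and bright genes weigh most in a linear sum. Gs2 lay −3.96 and −4.39 from Ras in the Sras tumors and −4.44 in the scrib mutant. Above Ras in the same order were brp (0.58, 0.70 and 0.45) and moody (0.39, 0.75 and 1.08). The part of these markers in the ewg values was not tested.

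Glycolysis genes lay on both sides of Ras in the Sras tumors and mostly above it in the scrib mutant. The list of 10 kept genes also holds Pdk, which is not a glycolytic enzyme and was the lowest of the list relative to Ras in every mutant array. With Pdk counted, the medians were −0.15 and 0.12 in the Sras tumors and 0.61 in the scrib mutant. In the scrib mutant 3 of 10 were at least 2-fold higher than Ras, against 9.26% of kept genes. Those were Pfk (1.93), Hex-A (1.77) and Pgi (1.16), and in the Sras tumors they lay at 0.19 and 0.53, at 0.42 and 0.66 and at −0.090 and 0.16. Ald1 and Tpi, which follow them in the pathway, lay 0.84 and 0.25 from Ras in the scrib mutant. Eno, the enolase of the lower pathway, read 13.35 in Sras mutant 1, 13.54 in Sras mutant 2 and 13.79 in the scrib mutant, against 12.83 in Ras and 12.87 in WT control. Pdk, the kinase that holds pyruvate dehydrogenase inactive and so limits the flow of pyruvate into the tricarboxylic acid cycle, read 8.84 in Sras mutant 1, 8.98 in Sras mutant 2 and 8.86 in the scrib mutant, against 9.72 in Ras and 9.59 in WT control. All 3 mutant arrays were below Ras and WT control for Pdk, with differences from Ras of −0.88 and −0.75 in Sras and −0.86 in scrib tumors.

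**Figure D4:**
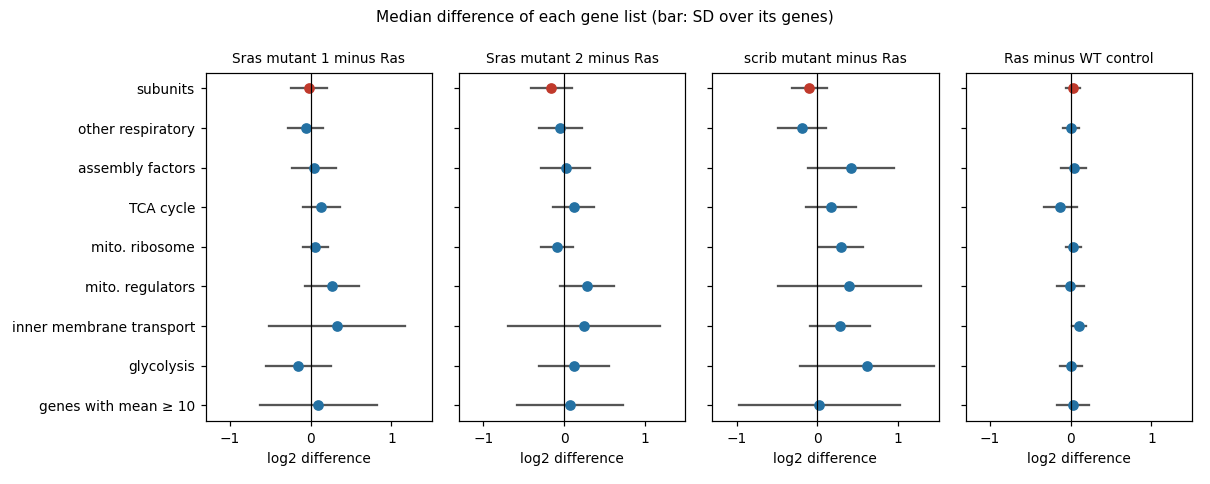
Median log2 difference (x axis) of each gene list (rows) in 4 comparisons (panels), 1 array per group. Points are medians over the kept genes of a list and bars extend 1 SD over its genes to either side; the bars are not errors of the median. The glycolysis list counts Pdk, which is not a glycolytic enzyme. The 49 subunits lie at −0.02, −0.16, −0.10 and 0.03 with short bars, while assembly factors, mitochondrial ribosomal proteins and glycolysis lie above 0 in the scrib mutant at 0.42, 0.29 and 0.61.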

How the data were processed

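RNA of 5 groups was hybridised to 1 array each. The authors deposited log2 values for 18952 probe sets, with the method not given in the sources used. Their range showed the log2 scale, as they ran from 3.32 to 14.9. Array medians were up to 0.153 apart, above a limit of 0.1, and the arrays were quantile normalized, which hides a shift of most genes in 1 direction. Of the probe sets, 13646 named 1 gene, 402 named several and 4904 none, and symbols were updated through gene identifiers for 13543. The probe set with the highest mean stood for a gene. The filter kept genes whose highest value was at least the 40th percentile (6.36), 7850 of 11981. A difference is log2, 1 array minus another, and counts used 0.5 and 1 log2 (2-fold). The number of arrays limits the precision. The members and lists were chosen with earlier results of these data known. Named were the 3 highest and 3 lowest subunits per complex in the Sras tumors, the 3 highest and 3 lowest in the scrib mutant, L paralogs past the filter, members 2-fold apart or with discordant probe sets, and up to 2 genes from either end of a list. Others were named after their values were seen. Left out of the lists as wrongly placed were 3 assembly genes (Naam, bsf and bsg25D) and Cyt-b5. Counting was checked on simulated data. Alternatives were the scaling, the filter, the probe set rule, the members and the threshold. Python 3.11.15, NumPy 2.4.6, pandas 2.3.3 and Matplotlib 3.10.9 were used.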

Additional observations from a re-analysis of the deposited data

How the results depend on the processing

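The values as deposited, a filter on the mean at the 50th percentile and a 3-fold threshold left every median and count of the 4 main comparisons within 0.1 log2 or 1.5 times. Centring on eye and antennal identity genes moved most. The subunit medians then were −0.92, −1.08 and 1.53 for Sras mutant 1, Sras mutant 2 and the scrib mutant minus Ras, −0.17 for Ras minus WT control, −1.06, −1.26 and 1.36 for the same mutants minus WT control, and −2.44 and −2.64 for Sras mutant 1 and Sras mutant 2 minus the scrib mutant. At least 2-fold lower than Ras were 13 subunits in Sras mutant 1 and 34 in Sras mutant 2, and 50 were 2-fold higher in the scrib mutant. Complexes I to V then had medians of −0.94, −0.96, −0.87, −0.92 and −0.78 in Sras mutant 1, −1.10, −1.14, −1.01, −1.16 and −0.98 in Sras mutant 2, 1.56, 1.49, 1.64, 1.54 and 1.47 in the scrib mutant, and −0.16, −0.30, −0.15, −0.14 and −0.22 for Ras minus WT control. Complexes IV and V in Sras mutant 1, complex V in Sras mutant 2, all 5 complexes in the scrib mutant and complexes I, III, IV and V in Ras minus WT control changed sign by this. So did the subunit medians of the scrib mutant minus Ras, Ras minus WT control, Sras mutant 1 and the scrib mutant minus WT control, and Sras mutant 1 minus the scrib mutant. Genes that turned included ATPsynC (−0.39 and −0.46) and COX7AL (−0.19 and −0.10) in both Sras tumors and ATPsynepsilonL (−0.017) in Sras mutant 2. The shift follows from the identity genes, which differ between the arrays. Centring on mitochondrial ribosomal protein genes gave subunit medians of −0.037 and −0.38 for Sras mutant 2 and the scrib mutant minus Ras, −0.45 for the scrib mutant minus WT control, and 0.35 and 0.32 for Sras mutant 1 and Sras mutant 2 minus the scrib mutant, the last with its sign changed. Complexes I and II were at −0.056 and −0.091 in Sras mutant 2, complexes I to V at −0.35, −0.41, −0.31, −0.37 and −0.43 in the scrib mutant, and complexes III and V at 0.0011 and −0.11 (sign changed) in Ras minus WT control. It also turned the subunit medians of Ras minus WT control (−0.052) and Sras mutant 1 minus WT control (−0.068), complex IV in Sras mutant 1 (−0.038), complex III in Sras mutant 2 (0.011) and complexes I and IV in Ras minus WT control (−0.047 and −0.030). Centring on the array median gave 0.0058 for the scrib mutant minus Ras, 0.12 and 0.081 for Sras mutant 1 and the scrib mutant minus WT control, −0.018 for complex II in Sras mutant 1, and 0.041, −0.027 and 0.082 for complexes I, II and III in the scrib mutant. Of these, the scrib minus Ras and scrib minus WT control medians and complexes I and III changed sign, and so did the Sras mutant 1 minus Ras median (0.014), complex III in Sras mutant 1 (0.048) and complex IV in the scrib mutant (0.016). With a 1.5-fold threshold 1 subunit was higher and 1 lower than Ras in each Sras array, and 1 was higher in the scrib mutant. Without the filter, or with the mean of the probe sets, 1 subunit was 2-fold higher in the scrib mutant. With L paralogs and Sdhaf3 included, 1 member was 2-fold higher in Sras mutant 1 and 2 in the scrib mutant, and complex II there was at 0.036. Medians near 0 changed sign in other settings too: complex IV in Sras mutant 1 (−0.046) and complex V in Sras mutant 2 (−0.035) with the values as deposited, complex III in Sras mutant 1 (0.0024) and the scrib mutant (0.0095) without the filter or with the mean of the probe sets, and complexes II and IV (0.0019) in the scrib mutant with all members. The cause of these smaller moves was not tested. No paired analysis was possible because each group has 1 array. Levels near 6.36 or below are close to background, which limits the L paralogs, ND-B8 and UQCR-11.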

Other observations

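Probe sets that name 2 genes were not counted as members, but 4 of them cover a gene of these complexes. The probe set shared by COX6B and CG18809 read 12.92 in Sras mutant 1, 12.81 in Sras mutant 2 and 12.78 in the scrib mutant, against 12.83 in Ras and 12.82 in WT control. That shared by ATPsynG and beat-Vb read 12.98 in Sras mutant 1, 12.83 in Sras mutant 2 and 12.86 in the scrib mutant, against 12.96 in Ras and 12.85 in WT control. ND-AGGG, a membrane-arm gene of complex I that shares a probe set with CG40472, read 12.15 in Sras mutant 1, 12.06 in Sras mutant 2 and 12.22 in the scrib mutant, against 12.27 in Ras and 12.10 in WT control. All 3 lay within 0.25 log2 of Ras in every mutant array. The probe set shared by COX6AL2 and Ir75d stayed below the filter value on every array.

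The probe set of ND-B8, ortholog of the matrix-arm subunit NDUFA2, read 4.57 in Sras mutant 1, 4.502 in Sras mutant 2 and 4.55 in the scrib mutant, against 4.68 in Ras and 4.65 in WT control, below the filter value on every array although the complex is built in nearly all cells. COX7B likewise has 1 probe set near 4.6 in Sras mutant 1 and 2 others at 12.93 and 13.01. Whether such probe sets measure their transcript was not tested.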
